A study of Mus musculus with 4 samples.

Results

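The 6 genes described here are NACA, PDCD5-PS, CXXC1, POU5F2, SPEER2 and 5033406O09Rik, out of 25824 gene symbols listed in the count tables of single cell RNA-seq from mouse testes. They were picked because their summed counts were lower in Ctcf-cKO mice in single cell classes, so their differences between genotypes are a description, and a call of the test across all genes is no evidence for any of them. The data came from 2 WT mice, with the genotype Ctcf wt/wt, and 2 Ctcf-cKO mice, with the genotype Stra8-iCre-Ctcf f/Δ, all labelled as background strain C56BL/6J and 15 weeks old. In the Ctcf-cKO mice one Ctcf allele is floxed and the other deleted in every cell, and Stra8-iCre, a Cre recombinase driven by the Stra8 promoter, removes the floxed allele in germ cells that are about to enter meiosis, so that Sertoli, Leydig and other somatic cells keep it. Per the methods, cell suspensions from 2 tubes were combined for the Ctcf-cKO mouse. Each mouse gave 1 library (WT replicates 1 and 2, Ctcf-cKO replicates 1 and 3), and values below follow that order.

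CTCF is a zinc finger protein that binds DNA and, with cohesin, shapes chromatin loops and the boundaries of domains. In the testis, spermatogonia become spermatocytes, which go through meiosis and give haploid spermatids. These are round at first and then elongate and pack their DNA with protamines. A gene used mainly by one stage gives fewer counts in a whole testis both when its transcription is lost and when fewer cells reach or survive that stage. In sums of barcodes, fewer cells of a type and less RNA per cell cannot be told apart.

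Sequence is shown first for PDCD5-PS, because it bears on what its counts measure. Pdcd5-ps lies at chr1:189277443-189277823 on the minus strand (GRCm38, GENCODE) and is annotated as a processed pseudogene of 1 exon. It sits within Kcnk2, on the same strand, where 7 of 10 Kcnk2 transcripts span it and 0 have an exon. All 381 of its 381 bases (100%) are identical to bases 151 to 531 of the 684 nt mRNA of Pdcd5, which are exactly its coding sequence. Pdcd5, which encodes a protein that binds the TRiC chaperonin, lies elsewhere, at chr7:35641982-35647521. Reads from this stretch could have been counted for either locus, and counts listed under PDCD5-PS are therefore uncertain as to their origin. The last 300 bases, the part nearest to where a 3′ library reads (chr1:189277443-189277742), are given, and the capitals mark the stop codon of the shared reading frame.
Pdcd5-ps: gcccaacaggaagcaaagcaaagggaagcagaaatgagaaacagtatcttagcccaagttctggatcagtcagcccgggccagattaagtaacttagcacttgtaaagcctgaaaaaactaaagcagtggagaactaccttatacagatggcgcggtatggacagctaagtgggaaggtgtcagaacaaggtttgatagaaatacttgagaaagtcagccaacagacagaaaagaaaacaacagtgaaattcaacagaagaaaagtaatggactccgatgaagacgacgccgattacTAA

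Promoters are shown for the 2 of these genes in which the bases before the start site came closest to the core of the CTCF binding motif. The motif searched was CCA, any 2 bases, AG, any 2 bases and GGC, which has 8 fixed bases, and it was looked for on both strands of the RefSeq promoters of GRCm38.p6, each of 300 bases. An exact match was present in 2.43% of 32851 promoters, and a match with at most 1 mismatch in 30.6%. Of the 6 genes, 4 had an entry (Naca, Pou5f2, Speer2 and 5033406O09Rik), and none of the 4 held an exact match. Pou5f2 and 5033406O09Rik each held a match with 1 mismatch, Speer2 one with 2 and Naca one with 3. Such a match is a description of the letters and not a measured binding site. The 250 bases before the start are given, with the closest match in capitals, which begins 63 bases before the start in Pou5f2 (read on the opposite strand of the gene) and 178 bases before it in 5033406O09Rik. The windows are chr13:78024652-78024901 on the plus strand for Pou5f2 and chr12:111944483-111944732 on the minus strand for 5033406O09Rik.
Pou5f2: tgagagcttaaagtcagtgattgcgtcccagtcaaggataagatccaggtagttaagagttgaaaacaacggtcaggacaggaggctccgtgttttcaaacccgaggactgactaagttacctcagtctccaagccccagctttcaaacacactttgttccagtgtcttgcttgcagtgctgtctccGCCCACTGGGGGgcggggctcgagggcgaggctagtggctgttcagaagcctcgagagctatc
5033406O09Rik: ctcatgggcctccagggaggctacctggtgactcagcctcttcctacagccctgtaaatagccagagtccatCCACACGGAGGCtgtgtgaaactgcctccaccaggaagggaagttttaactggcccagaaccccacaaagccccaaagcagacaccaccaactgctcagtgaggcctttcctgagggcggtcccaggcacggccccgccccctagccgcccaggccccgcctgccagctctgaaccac

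The other positions are given in GRCm38 as annotated by GENCODE. Pou5f2 is a protein-coding gene of 1 exon at chr13:78024902-78026295, on the plus strand. It lies within Fam172a on the same strand, where 4 of 10 Fam172a transcripts span it and 0 have an exon. Speer2 is a protein-coding gene at chr16:69856874-69863744, on the minus strand, and belongs to a multigene family whose members resemble each other, so reads may be shared among them. Naca lies at chr10:128035575-128048637 on the plus strand and is protein-coding. 5033406O09Rik lies at chr12:111941991-111944484 on the minus strand and is annotated as a lincRNA, a long RNA that encodes no known protein. Cxxc1 is protein-coding and lies on chromosome 18.

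The libraries differed in depth and in what they held. They had 6701235, 4859455, 2652665 and 1593546 counts over 5603, 6474, 5919 and 6407 barcodes, of which 1367, 4392, 5592 and 6114 held under 200 genes. Each pair of libraries shared 723 to 1310 barcodes. Barcodes above a depth limit, called cells here, numbered 96, 241, 228 and 246, with a median of 15357, 8251, 4668 and 2338 counts, and 12 to 31 of the cells in each library had a barcode that also stood in another library. The deleted gene CTCF had 16.4, 10.1, 1.51 and 4.39 counts-per-million (CPM), from 110, 49, 4 and 7 counts, and was lower in Ctcf-cKO (log2 fold change -2.19, SE 0.67, adjusted p = 0.0292, edgeR quasi-likelihood test with Benjamini-Hochberg adjustment). Summed Leydig cell markers were at 491, 193, 5781 and 5073 CPM and summed red blood cell markers at 198, 18.5, 2139 and 1404 CPM. Both sums were above both WT mice in both Ctcf-cKO mice in every set of barcodes described below, except Leydig markers in somatic-like cells, and their part in the results was not tested.

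In all barcodes of each mouse, 5 of the 6 genes were lower in both Ctcf-cKO mice than in both WT mice, beside 35.8% of 14552 genes tested that were so. CXXC1 was not. The edgeR test across all genes called 3 of the 6 lower (PDCD5-PS, POU5F2 and SPEER2) beside 10.1% of all genes, and it called 18.4% of all genes higher. The median log2 fold change of all genes was -0.04. Since the genes were chosen from these mice, nothing is read from those counts or from their calls.

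POU5F2 encodes a POU domain transcription factor of male germ cells. WT mice had 26.3 and 48.8 CPM of it and Ctcf-cKO mice 4.15 and 11.3 CPM. Both Ctcf-cKO mice lay below both WT mice, with a ratio of 4.86 between the WT and the Ctcf-cKO mean (log2 fold change -2.30, SE 0.52). These levels came from 176, 237, 11 and 18 counts in 62, 45, 4 and 7 barcodes, and 1 barcode held 28.3% of the counts of WT replicate 2. The log2 fold change was -3.12 when Ctcf-cKO replicate 3 was left out and -1.69 when replicate 1 was.

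SPEER2 encodes a glutamate-rich protein of the SPEER family, which is made in the testis. Its level was 80.9 and 68.9 CPM in WT against 34.3 and 39.5 CPM in Ctcf-cKO. The groups did not overlap, and the WT mean was 2.03 times the Ctcf-cKO mean (log2 fold change -0.96, SE 0.27). Its counts were spread over 256, 121, 32 and 27 barcodes.

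NACA encodes the alpha subunit of the nascent polypeptide-associated complex, which binds new protein chains as they leave the ribosome. WT mice had 139.5 and 59.5 CPM of NACA, against 46.4 and 50.8 CPM in Ctcf-cKO. WT replicate 1 stood far above the other 3 mice, and WT replicate 2 lay little above both Ctcf-cKO mice. The log2 fold change of -0.96 (SE 0.34) became -0.29 without WT replicate 1 and -1.46 without WT replicate 2.

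Counts of PDCD5-PS followed a like order, at 137.9, 75.1, 40.3 and 51.5 CPM, again highest in WT replicate 1. The groups did not overlap (log2 fold change -1.15, SE 0.30). Its parent PDCD5, whose coding sequence cannot be told apart from it, was at 150.4, 132.1, 76.9 and 81.0 CPM and fell by 0.77 on the log2 scale (SE 0.22, edgeR adjusted p = 0.0199).

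The lincRNA 5033406O09Rik, listed in the tables in capitals throughout and with no function given here, was at 17.9, 27.6, 10.9 and 8.79 CPM, from 120, 134, 29 and 14 counts. Both Ctcf-cKO mice lay below both WT mice (log2 fold change -1.13, SE 0.44). The fold change was -1.46 without WT replicate 1 and -0.78 without WT replicate 2.

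CXXC1 encodes a protein that binds unmethylated CpG and belongs to the SET1 complexes, which methylate histone H3 at lysine 4. Over all barcodes it went against the label under which these genes were grouped. At 26.4, 28.8, 31.3 and 22.6 CPM the WT mice lay between the Ctcf-cKO mice, and the log2 fold change was 0.04 (SE 0.35). Its name as a gene with a large fall does not hold for all barcodes.

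**Figure D1:**
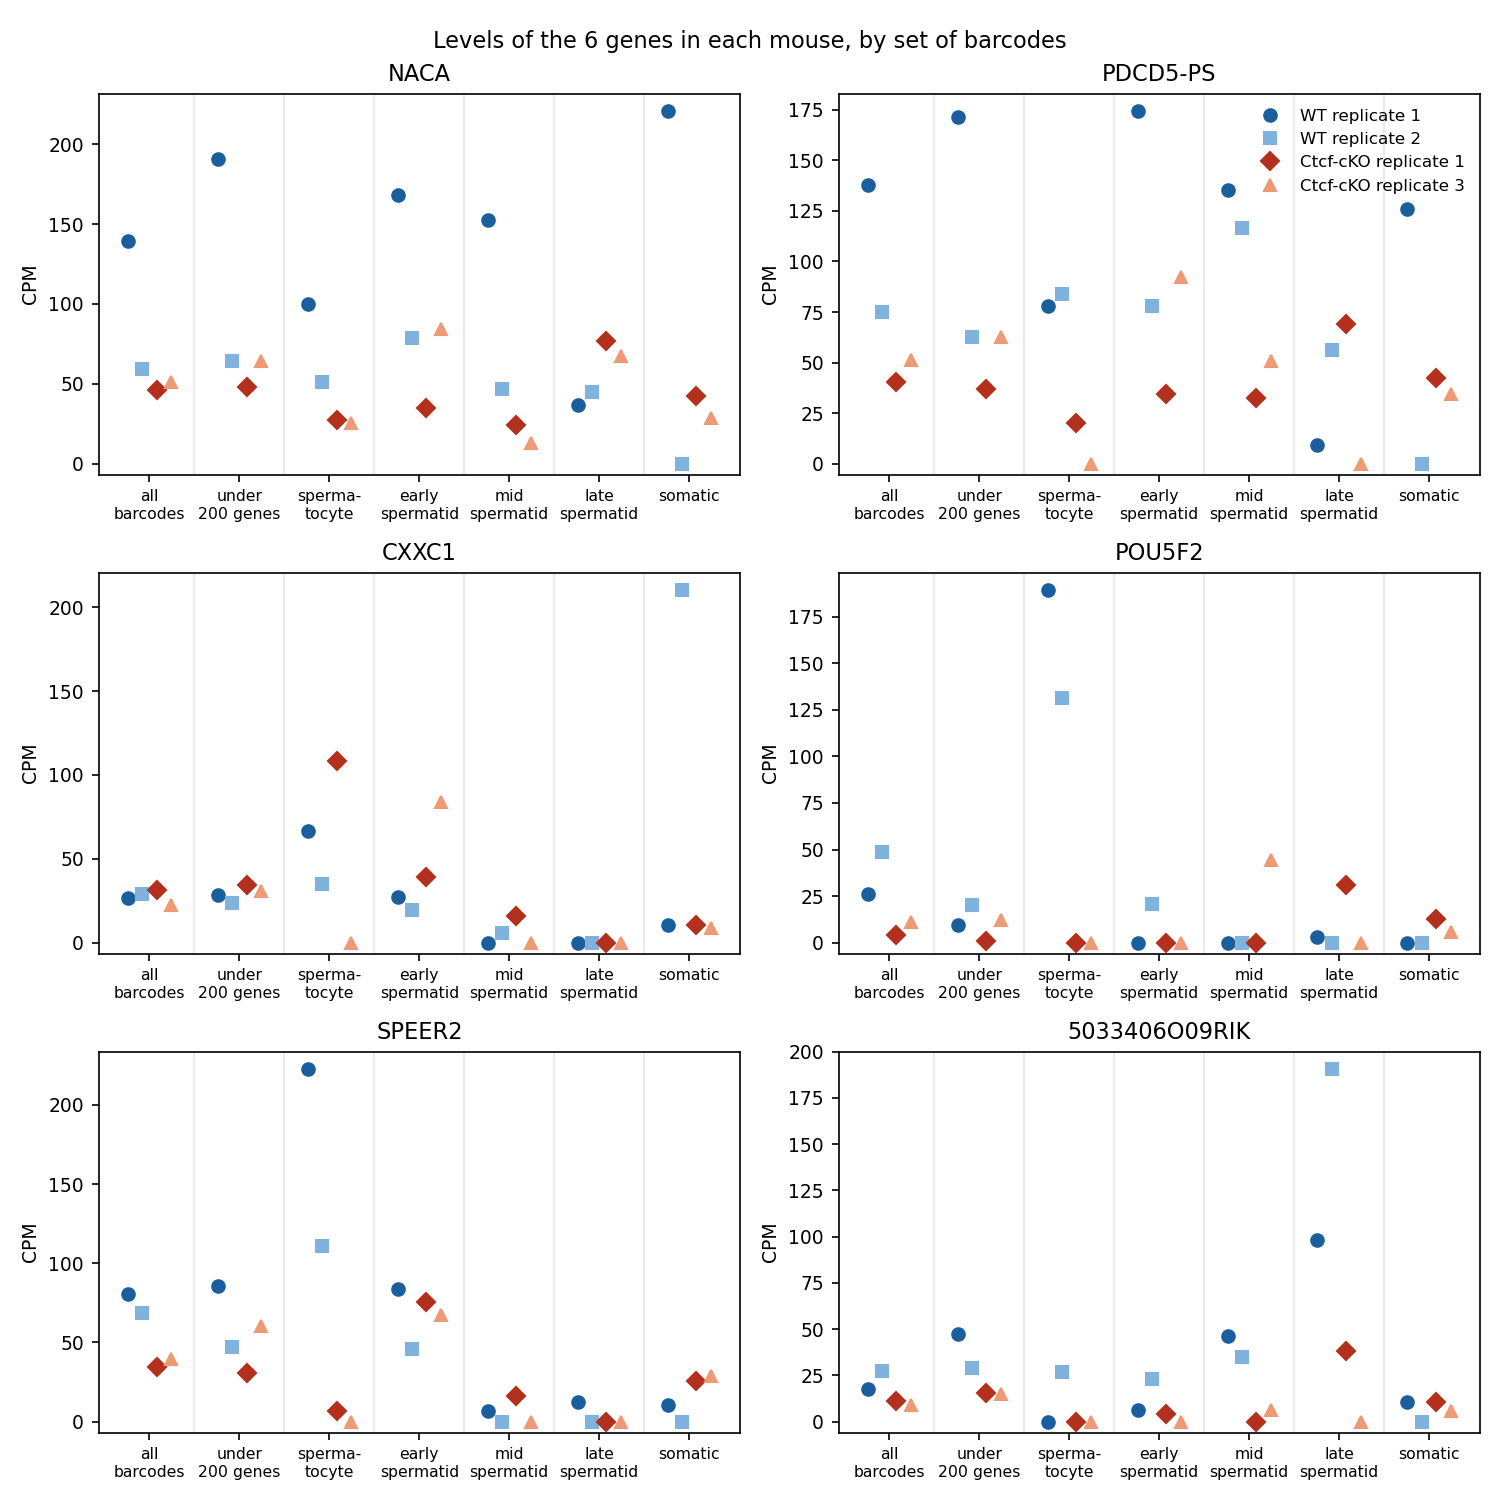
Counts-per-million of each of the 6 genes in the 2 WT (blue) and 2 Ctcf-cKO (red) mice, 1 point per mouse, over all barcodes, barcodes under 200 genes and the 5 named classes of cells. POU5F2 and SPEER2 stand highest in WT spermatocyte-like cells and 5033406O09Rik in WT late spermatid-like cells, while both CXXC1 groups overlap over all barcodes.

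To see which stage each gene belongs to, the cells were clustered and the clusters named by markers. Spermatocyte-like cells numbered 4, 30, 13 and 10, early spermatid-like cells 16, 140, 39 and 12, mid spermatid-like cells 35, 15, 36 and 39, late spermatid-like cells 27, 13, 39 and 54, and somatic-like cells 11, 7, 90 and 117. A further 64 cells stayed unnamed. The order of levels in WT mice is a description over 2 mice. POU5F2 was highest in spermatocyte-like cells (160.2 CPM ± 41.1, SD, n = 2), above the next class, early spermatid-like cells, in both mice. SPEER2 was also highest in spermatocyte-like cells (166.7 CPM ± 79.2, SD, n = 2), with early spermatid-like cells next at 64.9 CPM ± 27.1 and the mid, late and somatic-like classes at means of 3.23 to 6.15 CPM. Only its highest 2 classes stood clear of the class below them.

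5033406O09Rik had the reverse order among germ cells. It was highest in late spermatid-like cells (144.4 CPM ± 65.2, SD, n = 2), then in mid spermatid-like cells (40.7 CPM ± 8.11), and each stood clear of the next class. Early spermatid-like and spermatocyte-like cells followed at 14.8 and 13.3 CPM and did not differ beyond their spread. CXXC1 was at 50.8 CPM ± 22.6 in spermatocyte-like cells, at 23.2 CPM ± 5.26 in early spermatid-like cells and at or near 0 in mid and late spermatid-like cells. Its mean in somatic-like cells (110.4 CPM ± 141) rested on 9 counts in 2 cells of WT replicate 2.

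NACA and PDCD5-PS were spread over stages. NACA averaged 123.3 CPM in early and 99.5 CPM in mid spermatid-like cells, and these overlapped between mice. PDCD5-PS averaged 126.2 CPM in early and 126.1 CPM in mid spermatid-like cells, with 81.0 CPM in spermatocyte-like cells. Both were lowest among germ cells in late spermatid-like cells, at 40.9 and 32.6 CPM.

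These orders were set beside the levels of stage markers in all barcodes. Summed over 20 spermatocyte markers, the level was 1501, 1339, 729 and 673 CPM, so that the WT mean of 1420 CPM ± 115 (SD, n = 2) was 2.02 times the Ctcf-cKO mean of 701 CPM ± 39.7. Of the 20 markers 9 were called lower by edgeR and none higher, with a median log2 fold change of -0.96. Of 20 round spermatid markers 17 were called lower, with a median of -0.95, and their sum was at 6487, 6057, 3814 and 3799 CPM. Summed elongating spermatid markers were at 84385, 117762, 119541 and 121793 CPM, and 1 of 20 (TNP2, a transition protein) was called higher. These counts stand beside 10.1% of all genes called lower and 18.4% called higher. Among the genes highest in spermatocyte-like cells of WT mice, the WT to Ctcf-cKO ratio over all barcodes was 2.03 for SPEER2, near that of the spermatocyte markers, and 4.86 for POU5F2. CXXC1 had a ratio of 1.02, and NACA and PDCD5-PS, which were spread over stages, had ratios of 2.05 and 2.32. The ratio of 5033406O09Rik was 2.31, while the elongating spermatid markers of the stage in which it was highest were not lower over all barcodes. Over all cells of each mouse 5033406O09Rik was at 37.6, 30.8, 8.05 and 3.70 CPM, a ratio of 5.82. The summed elongating spermatid markers of those cells were at 163505, 129984, 117154 and 127959 CPM.

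**Figure D2:**
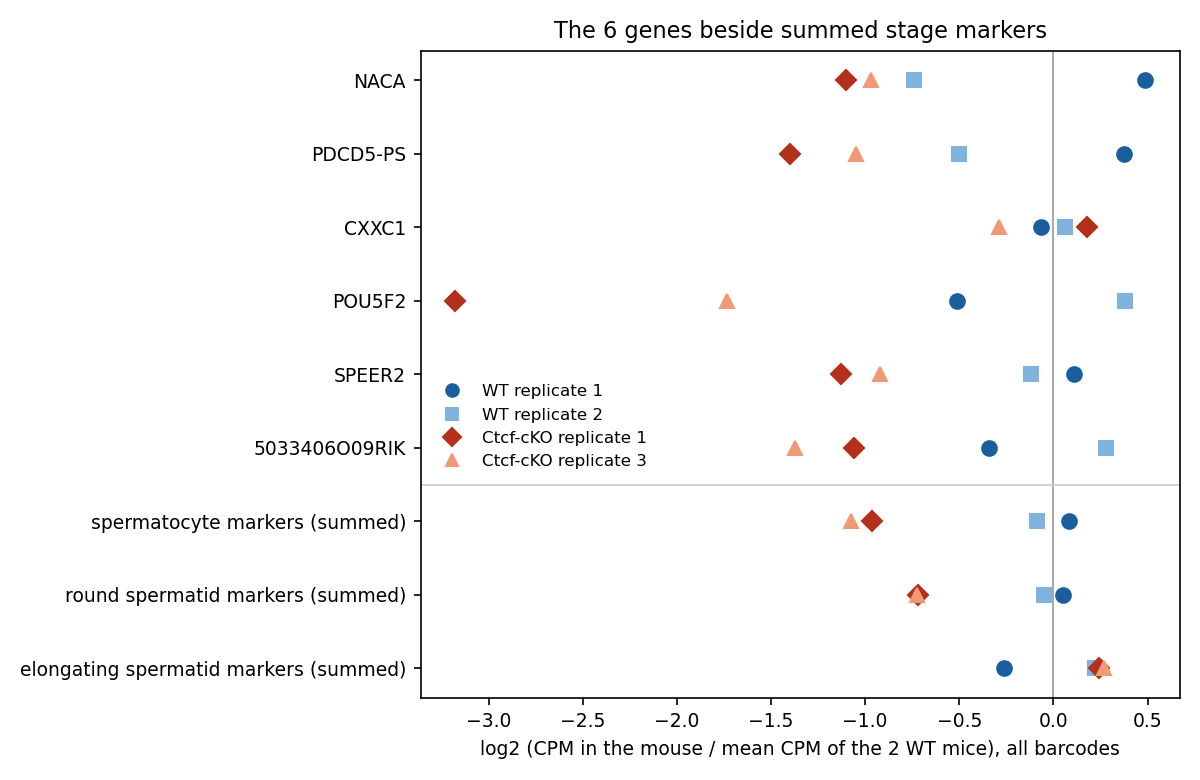
Level of each gene and of summed stage markers in each mouse over all barcodes, as log2 of the ratio to the WT mean. The spermatocyte markers of the Ctcf-cKO mice lie about as far below WT as SPEER2 does, POU5F2 lies further to the left and CXXC1 around 0, while 5033406O09Rik lies left of WT and the elongating spermatid markers do not.

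Each gene was next given per 1000 counts of the spermatocyte markers of the same library. SPEER2 was then at 53.9, 51.5, 47.0 and 58.7, and the Ctcf-cKO mice enclosed the WT mice. NACA was at 92.9, 44.4, 63.6 and 75.5 and PDCD5-PS at 91.8, 56.1, 55.3 and 76.4. 5033406O09Rik was at 11.9, 20.6, 15.0 and 13.0. None of these 4 kept both Ctcf-cKO mice below both WT mice on this scale. For 5033406O09Rik the markers of its own stage give another order. Per 1000 counts of elongating spermatid markers it was at 0.212, 0.234, 0.0915 and 0.0721, with both Ctcf-cKO mice below both WT mice.

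POU5F2 was the only one of the 6 that did in all barcodes. Per 1000 spermatocyte marker counts it was at 17.5 and 36.4 in WT against 5.68 and 16.8 in Ctcf-cKO, so that Ctcf-cKO replicate 3 lay only just under WT replicate 1. CXXC1 was at 17.6, 21.5, 42.9 and 33.6, with both Ctcf-cKO mice above both WT mice. This order of POU5F2 did not hold in barcodes under 200 genes or over all cells. In barcodes under 200 genes it was at 7.94, 16.1, 1.37 and 16.5 per 1000 spermatocyte marker counts, with Ctcf-cKO replicate 3 above both WT mice. Over all cells it was at 11.1, 29.7, 8.87 and 17.8, and the groups overlapped. 5033406O09Rik, in contrast, was at 44.9, 24.5, 10.6 and 5.94 over all cells, with both Ctcf-cKO mice below both WT mice.

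The order of SPEER2 depended on the stage used as the divisor. Per 1000 counts of round spermatid markers in all barcodes it was at 12.5, 11.4, 8.99 and 10.4, with both Ctcf-cKO mice below both WT mice. POU5F2 was also below on that scale (4.05, 8.05, 1.09 and 2.97), and CXXC1 was above (4.07, 4.76, 8.20 and 5.95). Relative to the elongating spermatid markers, all of the 6 but CXXC1 lay below both WT mice.

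**Figure D3:**
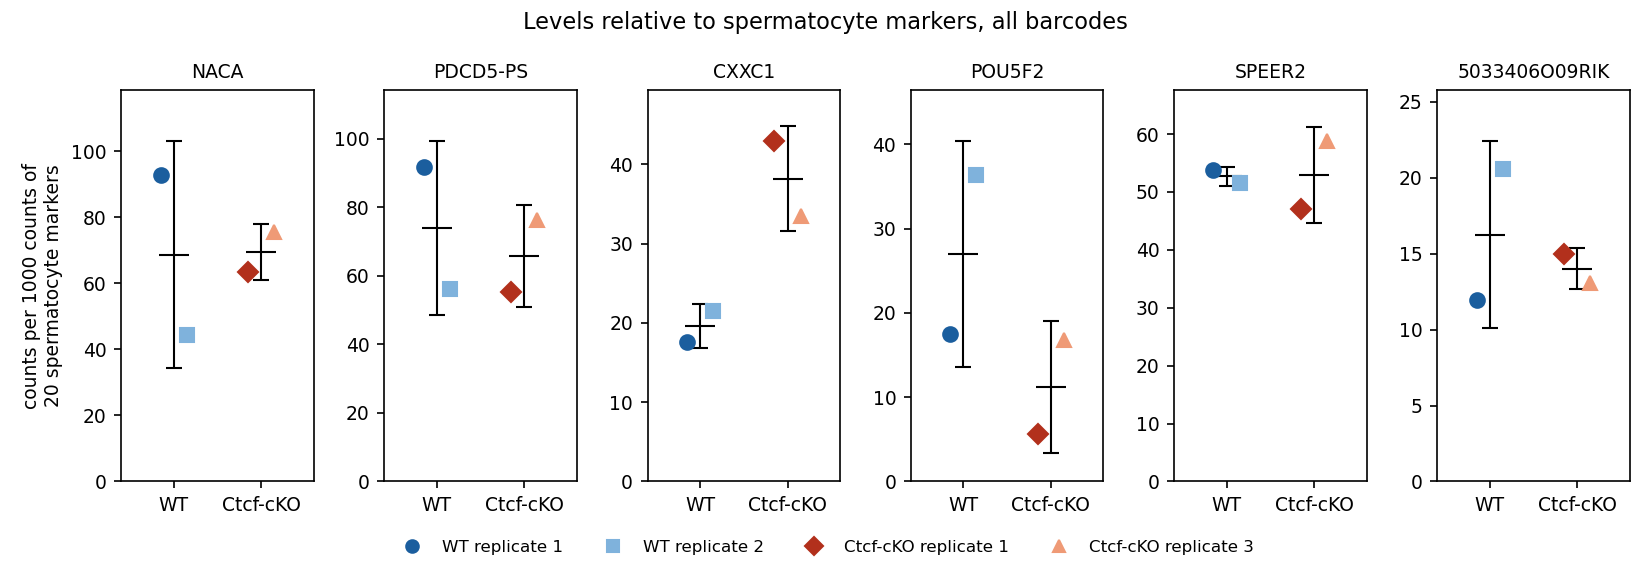
Counts of each gene per 1000 counts of 20 spermatocyte markers in all barcodes of each mouse, with the mean and SD of the 2 mice of each genotype. POU5F2 is lower in both Ctcf-cKO mice (5.68 and 16.8 against 17.5 and 36.4), CXXC1 is higher in both, and the groups of the other 4 genes overlap.

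Barcodes under 200 genes hold free RNA and shallow cells, and were summed as a set that does not depend on clustering. They held 1.57% and 12.1% of all counts in the WT libraries and 40.8% and 46.9% in the Ctcf-cKO libraries. Their median counts per barcode were 53, 52, 201.5 and 110. The limit of 200 genes thus took unlike parts of the libraries, and this set is not a like sample of the suspension across genotypes. Here 2 of the 6 genes (NACA and 5033406O09Rik) were below both WT mice, beside 32% of 7879 genes tested, and CXXC1 was above both. Of the 6 genes, 5 passed the filter on low counts. The edgeR test called 0 of the 6, beside 0.584% of all genes called lower and 5.84% called higher, from which nothing is read. 5033406O09Rik was at 47.6, 28.8, 15.7 and 14.7 CPM, but from 5, 17, 17 and 11 counts. NACA was at 190.5, 64.4, 48.1 and 64.2 CPM, so that WT replicate 2 and Ctcf-cKO replicate 3 were level.

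SPEER2 was at 85.7, 47.4, 30.5 and 60.2 CPM in these barcodes, and PDCD5-PS at 171.5, 62.7, 37.0 and 62.8 CPM. For both, Ctcf-cKO replicate 3 lay at or above WT replicate 2. POU5F2 was at 9.53, 20.3, 0.925 and 12.0 CPM from 1, 12, 1 and 9 counts, and CXXC1 at 28.6, 23.7, 34.2 and 30.7 CPM. POU5F2 RNA was therefore detected in this fraction of both Ctcf-cKO mice, with overlapping groups. The summed spermatocyte markers in the same barcodes were at 1200, 1262, 674 and 731 CPM, with 0 of 14 tested called by edgeR.

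The remaining barcodes had 200 genes or more but were not taken as cells. They stayed under the depth limit or failed the limits on genes or mitochondrial counts. In the WT mice they held 157 of the 176 and 127 of the 237 counts of POU5F2. Of these, 32 and 67 counts lay in 1 barcode of each mouse. The same WT barcodes held 450 of the 542 and 172 of the 335 counts of SPEER2. In the Ctcf-cKO mice they held 0 and 0 counts of POU5F2 and 3 and 0 of SPEER2. Such barcodes held 69.5% and 33.7% of all counts in the WT libraries and 3.07% and 2.14% in the Ctcf-cKO libraries, so the fractions differ in size between genotypes for every gene.

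Within spermatocyte-like cells, 4 of the 6 genes (NACA, PDCD5-PS, POU5F2 and SPEER2) were below both WT mice, beside 23.5% of 3055 genes tested. Only POU5F2 and SPEER2 passed the filter on low counts, so the 4 genes and the 23.5% do not come from like sets of genes. In this class edgeR called 0 genes in either direction, while 176 passed an unadjusted p of 0.05 and 60 were called higher and 0 lower by DESeq2. The class sums held 89828, 487993, 147441 and 39737 counts, and a count of 0 allows up to 20.3 CPM in Ctcf-cKO replicate 1 and 75.5 CPM in Ctcf-cKO replicate 3 (3 counts of the total, for counting error only).

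POU5F2 had 189 and 131 CPM in WT and 0 in both Ctcf-cKO mice. The WT counts were 17, all in 1 cell, and 64 in 11 cells. With the counts of each genotype pooled and those of Ctcf-cKO set at 3, the WT to Ctcf-cKO ratio was 8.75. This ratio leaves out the spread between mice and between cells. It is a description, since POU5F2 was picked from such sums. SPEER2 was at 223, 111, 6.78 and 0 CPM, from 20 counts in 1 cell, 54 counts in 18 cells, 1 count and 0 counts. For both genes the groups did not overlap, and WT replicate 1 rested on a single cell.

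The other genes were lower in counts still. NACA was at 100, 51.2, 27.1 and 25.2 CPM from 9, 25, 4 and 1 counts, and PDCD5-PS at 77.9, 84.0, 20.3 and 0 CPM. CXXC1 was at 66.8, 34.8, 108.5 and 0 CPM, highest in Ctcf-cKO replicate 1. 5033406O09Rik had counts in this class only in WT replicate 2, at 26.6 CPM, so it could not lie below both WT mice.

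The spermatocyte markers of the class bear on how its cells compare between mice. Their sum was at 6123, 3285, 2665 and 1686 CPM. SYCP3, a protein of the synaptonemal complex that joins paired chromosomes in meiosis, was at 779, 523, 427 and 25.2 CPM, and TEX101, a surface protein of germ cells, at 790, 414, 651 and 0 CPM. TOP2A, a topoisomerase, was at 223, 131, 0 and 0 CPM, the same order as POU5F2. Of 17 markers with counts in both WT mice, 2 were at 0 in Ctcf-cKO replicate 1 and 9 in Ctcf-cKO replicate 3, and 12 were below both WT mice.

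In Ctcf-cKO replicate 1, which kept SYCP3 and TEX101, these 17 markers stood at a median of 40.9% of their WT mean, from 0 to 129.6%. POU5F2 stood at 0% and SPEER2 at 4.07% on the same scale, NACA at 35.8%, PDCD5-PS at 25.1% and CXXC1 at 213.6%. POU5F2 and SPEER2 lay at the low end of the range of the markers, where TOP2A was also at 0. Both were picked because they were low in such sums, so nothing is read from this place. SPEER2 rested on 1 count in this mouse, and the 0 of POU5F2 allows up to 20.3 CPM. The markers SYCP2 and MEIOB stood at 10.1% and 13.5%. MSH4 was the other marker at 0, but from only 1 and 3 counts in the WT mice, and its WT levels of 11.1 and 6.15 CPM are below what a count of 0 allows in this mouse. The same class held summed Leydig markers at 145, 180, 9441 and 6266 CPM, Sertoli markers at 55.7, 188.5, 2191 and 3246 CPM and red blood cell markers at 0, 0, 536 and 277 CPM. The part of these somatic transcripts in the lower values was not tested.

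**Figure D4:**
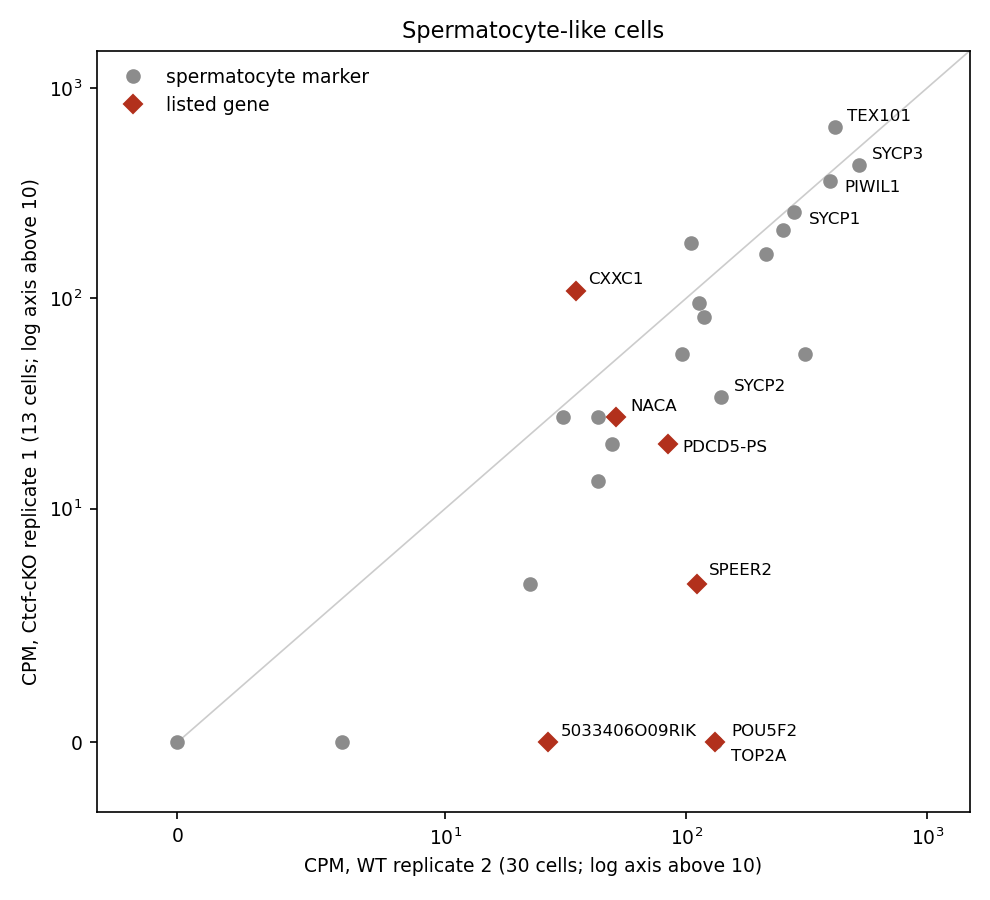
Level of the 20 spermatocyte markers (grey) and the 6 genes (red) in spermatocyte-like cells of Ctcf-cKO replicate 1 (13 cells) against WT replicate 2 (30 cells), in counts-per-million on axes that are logarithmic above 10. Points below the line are lower in the Ctcf-cKO mouse; POU5F2 and TOP2A coincide at 131 and 0, SPEER2 lies at 111 and 6.78, and SYCP3 and TEX101 lie near the line.

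Early spermatid-like cells came from 3 clusters that the mice filled unequally, with 0, 72, 25 and 9 cells in the first, 8, 39, 9 and 2 in the second and 8, 29, 5 and 1 in the third. WT replicate 1 had no cell in the first, which held most of the Ctcf-cKO cells of this class. In early spermatid-like cells, 1 of the 6 genes (5033406O09Rik) was below both WT mice, beside 15% of 6519 genes tested, and CXXC1 was above both. POU5F2 and 5033406O09Rik did not pass the filter on low counts here. 5033406O09Rik was at 6.34, 23.2, 4.33 and 0 CPM from 4, 38, 2 and 0 counts. A count of 0 allows up to 25.2 CPM in Ctcf-cKO replicate 3, which is above both WT values. SPEER2 was at 84.0, 45.7, 75.9 and 67.3 CPM, and the Ctcf-cKO mice lay between the WT mice. POU5F2 was detected only in WT replicate 2, with 34 counts in 13 cells (20.7 CPM), so it could not lie below both WT mice. NACA was at 168, 78.6, 34.7 and 84.1 CPM and PDCD5-PS at 174, 78.0, 34.7 and 92.5 CPM, and in both Ctcf-cKO replicate 3 lay above WT replicate 2. CXXC1 was at 26.9, 19.5, 39.0 and 84.1 CPM. The edgeR test called 0 genes in this class, where 217 passed an unadjusted p of 0.05 and 5 were called higher and 0 lower by DESeq2.

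In mid spermatid-like cells, 3 of the 6 genes (NACA, PDCD5-PS and 5033406O09Rik) were below both WT mice, beside 21.7% of 2605 genes tested. CXXC1, POU5F2 and SPEER2 each had 0 counts in at least 1 WT mouse here, so they could not lie below both. NACA was at 152, 46.7, 24.2 and 12.7 CPM from 118, 8, 6 and 2 counts. PDCD5-PS, the only one of the 6 to pass the filter on low counts in this class, was at 135.5, 116.6, 32.2 and 51.0 CPM. Its log2 fold change was -1.67 (SE 0.59). The edgeR test called 0 of the 6, beside 1.19% of all genes called lower and 7.41% called higher. 5033406O09Rik was at 46.5, 35.0, 0 and 6.37 CPM. POU5F2 had no count in the WT mice here and 7 counts in 2 cells of Ctcf-cKO replicate 3.

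In late spermatid-like cells, where 5033406O09Rik was highest in WT mice, it was at 98.3, 190.5, 38.4 and 0 CPM from 32, 17, 5 and 0 counts. It was the only one of the 6 below both WT mice in this class, beside 15.7% of 1686 genes tested (log2 fold change -2.79, SE 1.09). CXXC1, POU5F2 and SPEER2 each had 0 counts in at least 1 WT mouse here, so they could not lie below both. Of the 6, only 5033406O09Rik passed the filter on low counts here, and edgeR did not call it. Of all genes tested, 8.84% were called higher by edgeR and 0 were called lower by edgeR or by DESeq2. An unadjusted edgeR p under 0.05 was reached by 260 genes in either direction. NACA went the other way, at 36.9, 44.8, 76.8 and 67.2 CPM from 12, 4, 10 and 8 counts. CXXC1 had no count in the late spermatid-like cells of any mouse. Summed elongating spermatid markers in this class were at 245790, 297083, 209703 and 207497 CPM, also below both WT mice in both Ctcf-cKO mice. Of 20 tested, 18 had a negative log2 fold change, with a median of -0.36, and edgeR called 0. Median counts per cell of this class were 9068, 4639, 1940 and 1467.5, so the Ctcf-cKO cells were shallower.

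Somatic-like cells, in which Stra8-iCre does not act, gave 0 of the 6 genes below both WT mice, beside 18.1% of 4645 genes tested. WT replicate 2 had 0 counts of every listed gene but CXXC1 in this class, so none of those could lie below it. Nothing is therefore read from this 0. The class pooled 4 clusters that the mice filled unequally. A cluster led by TUBB5 with 5 Sertoli markers held 2, 3, 52 and 41 cells, one led by CYP17A1 with 12 Leydig markers 6, 0, 25 and 38, one led by LYZ2 with 9 macrophage markers 0, 2, 4 and 25, and one led by DCN with 7 fibroblast or peritubular markers 3, 2, 9 and 13. POU5F2 was at 0, 0, 12.8 and 5.77 CPM and SPEER2 at 10.5, 0, 25.5 and 28.9 CPM, both above WT in both Ctcf-cKO mice. These rested on 6 and 2 counts of POU5F2 and on 12 and 10 counts of SPEER2. A count of 0 allows up to 31.5 and 70.1 CPM in the WT mice, which is above all of these Ctcf-cKO values. None of the 6 genes passed the filter on low counts there, and edgeR called 0 genes, where 324 passed an unadjusted p of 0.05 and 3 were called higher and 0 lower by DESeq2. NACA was at 221, 0, 42.5 and 28.9 CPM and PDCD5-PS at 126, 0, 42.5 and 34.6 CPM, with the WT mice at both ends of the range. CXXC1 was at 10.5, 210, 10.6 and 8.66 CPM, from 1, 9, 5 and 3 counts. Its lower Ctcf-cKO mean in this class thus rested on WT replicate 2. The WT sums of this class held 95168 and 42812 counts from 11 and 7 cells.

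Partners and relatives of the 6 genes were followed in all barcodes, where 10.1% of all genes were called lower and 18.4% higher. Of 10 genes of the group of PDCD5 and the TRiC chaperonin, which folds actin, tubulin and other proteins, 5 were called lower and none higher, with a median log2 fold change of -0.54. These were PDCD5 and the chaperonin subunits TCP1 (-0.89), CCT2 (-0.60), CCT3 (-0.69) and CCT4 (-1.02). In the other sums none of this list was called, and its median was -0.30 in barcodes under 200 genes, -0.58 in spermatocyte-like, -0.18 in early, 0.54 in mid and 0.06 in late spermatid-like and 0.25 in somatic-like cells. Of 17 partners of NACA and other factors of nascent chains, 2 were called lower and 4 higher, with a median of 0.01, so that the list is not set apart from all genes by these counts. BTF3, the beta subunit that pairs with NACA, was at 30.4, 12.8, 7.16 and 7.53 CPM, again highest in WT replicate 1, and fell by 1.49 on the log2 scale (edgeR adjusted p = 0.0483). SRP9, of the signal recognition particle, fell by 0.72. NAA10 and NAA50, of N-terminal acetyltransferases, SEC61B, of the translocon of the endoplasmic reticulum, and HSPA14, a chaperone of the ribosome, rose by 2.87, 1.18, 1.39 and 1.82. In the other sums 1 gene of these partner lists was called, SRP19 in mid spermatid-like cells (5.15, adjusted p = 0.0125).

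CXXC1 belongs to the SET1 complexes, and its list also held genes of the MLL complexes and PRDM9. Of 12 genes tested of this list, the shared subunits ASH2L (-0.70) and DPY30 (-0.72) fell. KMT2A (3.10) and WDR82 (1.72) rose, and the median was 0.04. Of 6 other CXXC domain genes tested, KDM2B, a histone demethylase, was at 19.4, 10.5, 1.13 and 2.51 CPM and fell by 3.05 (edgeR adjusted p = 0.00703), and CXXC5 fell by 1.10. The median of these 6 was 0.14.

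Of 5 tested genes of the list of POU factors and FAM172A, the host of POU5F2, none was called by edgeR in all barcodes. POU2F1 had a log2 fold change of -0.67, POU6F1 of -0.59, FAM172A of -0.61 and POU2F2 of 0.68, and the median of the 5 was -0.59. FAM172A was at 4.33, 8.23, 3.02 and 5.02 CPM. Of 13 other SPEER symbols 7 were tested, and all 7 had a negative fold change, beside 51.6% of all genes, with a median of -1.49. SPEER5-PS1, a pseudogene of the family, was at 30.4, 19.8, 6.41 and 10.7 CPM and was called lower (-1.52, edgeR adjusted p = 0.0266). In barcodes under 200 genes 1 of 3 tested SPEER symbols had a negative fold change, and in early spermatid-like cells 0 of 2. With reads that may be shared, these members are not independent of SPEER2.

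The nearest genes with enough counts on either side of each gene were followed as well, together with the 2 host genes. Of 38 such neighbours 37 were tested, of which 8 were called lower and 4 higher, with a median log2 fold change of -0.40, beside 10.1% of all genes called lower and 18.4% higher. Around POU5F2, 0 of 7 neighbours were called, and 5 of them had both Ctcf-cKO mice below both WT mice, as had 35.8% of all genes. Beside NACA, PTGES3 (-0.84) and BAZ2A (-1.07) fell and ZBTB39 (2.93) rose. Of 6 tested neighbours of PDCD5-PS, CENPF (-1.81), 362783 bases away, and PTPN14 (-3.56) fell, and none was called higher. KCTD3, nearer at 269602 bases, was not called (0.24, SE 0.91), and neither was the host KCNK2 (0.48, SE 0.71). Around CXXC1, CFAP53 (-0.88) and MYO5B (-1.42) fell and MRO (3.10) rose. 1700010K23Rik fell by 1.01 and ROBO1 rose by 2.41 around SPEER2, both over 2 Mb away. Around 5033406O09Rik, TDRD9 fell by 1.62 and ZFYVE21 rose by 2.43.

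The genes whose pattern was most like that of each gene were ranked by Pearson's r of log2(CPM + 10) over 16 sums, 4 mice by 4 classes (early, mid and late spermatid-like and somatic-like cells), among 6340 genes. Spermatocyte-like cells were not included, since WT replicate 1 had 4 of them and at least 5 per mouse were asked for. The highest values were 0.95 for SPEER2 with SLC39A10, 0.90 for CXXC1 with CTNNBL1, 0.86 for NACA with GRK4, 0.86 for PDCD5-PS with PIFO, 0.81 for 5033406O09Rik with MACROD1 and 0.74 for POU5F2 with PPM1L. The sums of 1 mouse share a library and its depth, and these values are a description only.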

How the data were processed

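Testis cells of 2 WT and 2 Ctcf-cKO mice were barcoded in ddSEQ droplets and made into 3′ libraries. Reads were aligned by the authors to GRCm38, and the deposited values are raw whole-number counts, by gene symbol in rows and barcode in columns. The version of the counting tool, its strand setting and the merging of reads of one molecule are not given in the sources used here. Single entries pile up at 1 to 4, so 1 count may not be 1 molecule, and PCR copies make intervals and floors cover counting error only.

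The 6 genes and the lists were chosen with earlier results of these data known. Cells were barcodes with 200 to 7000 genes, at most 10% mitochondrial counts and a total of 3 or more times the plateau of the library (the median count of barcodes ranked 301 to 1000). That limit was chosen after seeing the data. Seurat 5.3.0 was used to normalize, choose 2000 variable genes, compute 15 principal components and cluster (resolution 0.9), with Harmony rewritten (theta 2, sigma 0.1) in between. Clusters were named by at least 3 markers from the lists of stage and cell type markers. Doublets were not called or removed.

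Counts were summed per mouse and set in Python 3.11.15 (pandas 2.3.3, numpy 2.4.6) and each set was fitted on its own, with all genes, by the quasi-likelihood F test of edgeR 4.0.16 in R 4.3.3, after TMM scaling and filterByExpr, at a Benjamini-Hochberg adjusted p of 0.05. The log2 fold change over the square root of F gives its SE. Listed genes below both WT mice were counted without the filter, while the shares beside them cover only genes that passed it. Sums ranged from 39737 to 6701235 counts per mouse, and precision rests on 2 mice per genotype. Labels do not say more on replicates than 1 mouse per library. Fits were checked on simulated counts. Named genes were the 6 genes, CTCF, genes of the partner lists past the threshold in any set (otherwise up to 4 of the highest), the 3 nearest genes on each side with at least 50 counts, and the most alike genes. Alternatives were DESeq2 1.42.0, scaling by library totals, testing all genes without a filter, barcodes under 100 genes, a limit of 2 times the plateau, a resolution of 0.5, no batch correction and each mouse left out. Counts divided by 4 and rounded up and barcodes found in only 1 library were added after seeing the data. One gene of the partner lists is not reported here.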

Additional observations from a re-analysis of the deposited data

Results flagged for a closer look

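For NACA, POU5F2 and SPEER2, both Ctcf-cKO mice lay above both WT mice in one sum and below both in another. The difference between the sums was not tested in any of these cases. NACA was 31.2 CPM higher on average in Ctcf-cKO than in WT in late spermatid-like cells. It was lower in barcodes under 200 genes, by a difference of -71.3 CPM, in spermatocyte-like cells (-49.6 CPM) and in mid spermatid-like cells (-81 CPM). In barcodes under 200 genes that difference rested on WT replicate 1, at 190.5 CPM from 20 counts. There WT replicate 2 (64.4 CPM) and Ctcf-cKO replicate 3 (64.2 CPM) were level. The late values rested on 4 to 12 counts per mouse. POU5F2 was 9.27 CPM higher in somatic-like cells of Ctcf-cKO mice, where it had 6 and 2 counts, and differed by -160 CPM in spermatocyte-like cells. SPEER2 was 21.9 CPM higher in somatic-like cells, from 12 and 10 counts, and differed by -163 CPM in spermatocyte-like cells.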

How the results depend on the processing

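With 2 mice per genotype and 1 to 3 counts behind several values, the class results are limited by depth, and the log2 fold changes of the listed genes moved by less than the spread between mice in 190 of 207 alternatives. No called value turned its direction, while CXXC1 in all barcodes went from -0.25 without Ctcf-cKO replicate 1 to 0.23 without Ctcf-cKO replicate 3. No paired analysis was possible because the labels record no pairing of the mice. The mid class with no batch correction or at a resolution of 0.5, and the late class at 2 times the plateau, gave no value, since no such class formed.

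The number of genes called by edgeR, and of listed genes below both WT mice, moved as follows, and the cause was not tested. In all barcodes 4150 genes were called, and 1710 to 4444 with 1 mouse left out (1710 without Ctcf-cKO replicate 1, 1989 without Ctcf-cKO replicate 3), with 5 to 6 of the listed genes below. In barcodes under 200 genes 506 became 230 by DESeq2, 163 under 100 genes and 132 to 1344 with 1 mouse left out, and the listed genes below went from 2 to 5 (also 5 with counts divided by 4). In spermatocyte-like cells 0 became 60 by DESeq2, 23 with library totals alone, 54 with no filter, 26 with counts divided by 4 and 10 to 176 with 1 mouse left out, with 4 to 5 listed genes below. In early spermatid-like cells 0 became 5, 1 and 40 under the first 3 of these and 0 to 49 with 1 mouse left out, and the 1 listed gene below became 2 at 2 times the plateau, without batch correction or without shared barcodes, 0 with counts divided by 4 and 1 to 4 with 1 mouse left out. In mid spermatid-like cells 224 became 419 at 2 times the plateau, 127 with counts divided by 4 and 123 to 332 with 1 mouse left out, with 3 listed genes below throughout. In late spermatid-like cells 149 became 247 without batch correction, 587 at a resolution of 0.5, 34 with counts divided by 4 and 65 to 180 with 1 mouse left out, and the 1 listed gene below became 4, 2, 1 and 1 to 2. In somatic-like cells 0 became 3 by DESeq2, 20 with no filter, 2 with counts divided by 4 and 4 to 513 with 1 mouse left out, and the listed genes below went from 0 to 1 with counts divided by 4 and 0 to 2 with 1 mouse left out.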
